A study of Drosophila melanogaster with 2 samples.

Results

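Peaks of the forkhead family transcription factor fd96Cb were examined at 10 genes that regulate the cell cycle of Drosophila melanogaster: stg, CycA, CycB, CycB3, CycE, Cdk1, E2f1, Rbf, dap and fzy. The genes were listed by symbol with earlier results of these data known, although the rule itself uses no peak value. All 10 were found among the 13945 protein-coding genes of the annotation. For each gene, every peak summit in the gene body and within 5000 bp on either side was collected. The data are chromatin immunoprecipitation with sequencing (ChIP-seq) of whole embryos of strain fd96Cb, 0 to 24 h old, whose genome holds an inserted copy of fd96Cb with green fluorescent protein at its C-terminus. Both samples, biological replicates 2 and 3, share this genotype and age and were precipitated with an antibody against the tag, although the antibody field of the labels names fd96Cb. They form 1 group, so there is no contrast between conditions and no test over samples. The sequence that drives the fusion gene is not given in the sources used here. Whole embryos of this age span mix all stages and tissues, so many cells with weak binding and few cells with strong binding cannot be told apart.

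The cell cycle is driven by cyclin-dependent kinases, which act only when bound to a cyclin. Cdk1 with the A and B type cyclins brings cells into mitosis, and the phosphatase encoded by stg (string, a Cdc25 homologue) removes the inhibitory phosphates from Cdk1, which is the limiting step for many embryonic divisions. CycE with its partner kinase starts DNA replication, under the control of the transcription factor E2f1, its repressor Rbf (a retinoblastoma protein) and the kinase inhibitor encoded by dap (dacapo). The product of fzy (fizzy, a Cdc20 homologue) activates the anaphase-promoting complex, which degrades the mitotic cyclins. In fly embryos the earliest divisions run on maternal products, and later divisions are set by transcription of stg and, at the exit from the cycle, by the loss of CycE and the rise of dap.

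Strong peaks lay at some of these genes and were missing at others. The authors' optimal set, thresholded by the irreproducible discovery rate (IDR), holds 5743 peaks. They are the strongest 5743 of the 30000 peaks in the pooled list. The set derives from both replicates, but how each replicate entered the threshold is not given in the sources used here. Ranks below are by the authors' signal value, with 1 the strongest, and a promoter summit is one within 1000 bp of an annotated transcription start site (TSS). Of the 10 genes, 4 had a promoter summit in the IDR set, namely CycE, Cdk1, E2f1 and dap, against 21.9% of all protein-coding genes. With the gene body and 5000 bp on either side, 7 of 10 had an IDR summit, against 49.9% of all, and stg, CycB3 and Rbf had none. Only CycB, CycE, E2f1 and dap, 4 of 10 genes, owned the TSS nearest to an IDR summit, against 23.8% of protein-coding genes. The windows of the 10 genes cover 0.19 Mb and held 17 IDR summits, or 89.3 per Mb. The exact Poisson 95% interval of 52.0 to 143 covers counting error only, takes summits as independent and is no test against other genes. The 6 chromosome arms had 42.9 per Mb and the windows of all protein-coding genes 47.0. Without E2f1, which alone held 7 of the 17 summits, the density was 71.6 per Mb. Whether the members differ from other genes was not tested.

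Not all of these summits can be tied to the cell cycle gene. For 9 of the 17, a member's TSS was the nearest of any protein-coding gene, and for the other 8 it was that of a neighbour, in every case within 1000 bp. By position, 6 summits lay in introns of E2f1 or CycE, 6 upstream and 5 downstream of the gene, and 0 in an exon of the member. The Cdk1 summit of rank 938 lay in gny and the fzy summit of rank 4267 in CG5861. All bases within 50 bp of both were annotated untranslated exon sequence. All 5 promoter summits of members lay upstream of the member's nearest TSS. For CycE and E2f1 that TSS is internal and the summit lies in an intron. Neither this share nor the split by position was computed over all IDR summits.

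**Figure D1:**
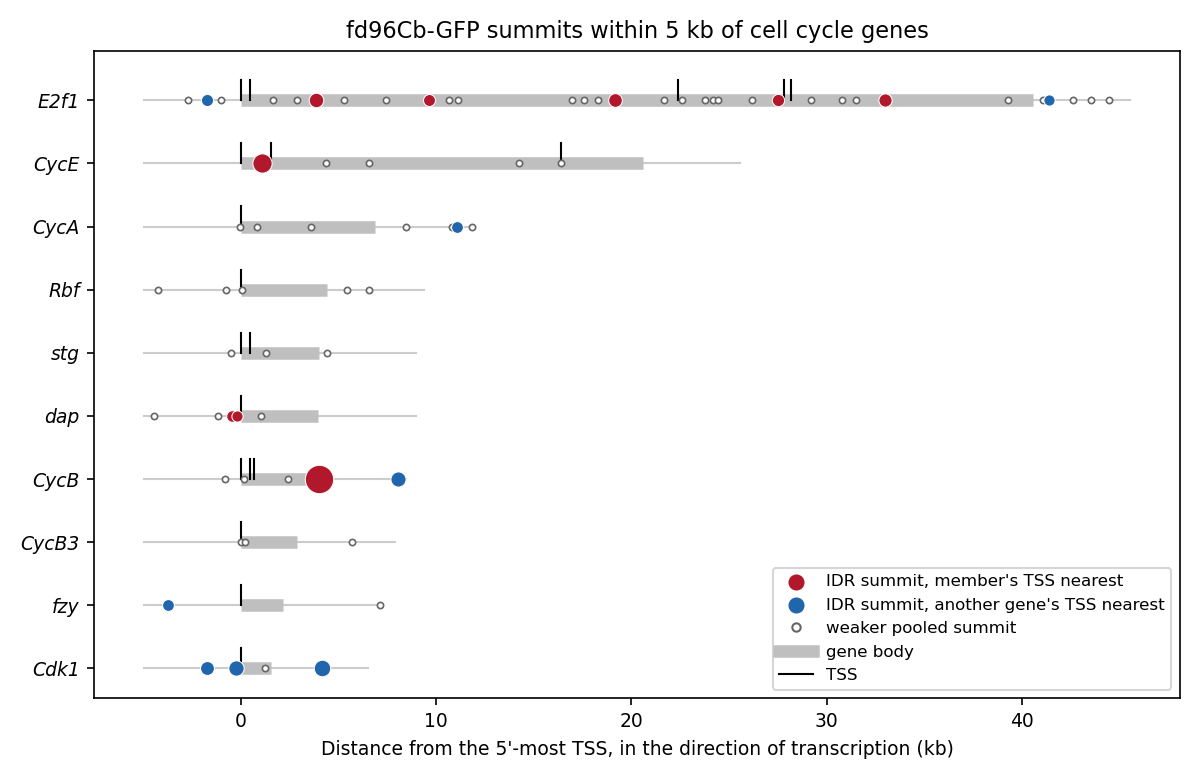
Peak summits around the 10 genes. Each row is 1 gene, aligned at its 5′-most TSS, with distance in kb along the direction of transcription. Filled circles are IDR summits with area growing with the signal value, and open circles are weaker pooled summits. Filled circles are red where the member has the nearest protein-coding TSS and blue where another gene has it. The largest circle is the summit past the 3′ end of CycB (signal 2008), and E2f1 holds 7 of the 17 IDR summits.

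CycE, the gene of cyclin E, carried the strongest promoter peak of the 10 genes. CycE (FBgn0010382) lies on the reverse strand of arm 2L, 15727581 to 15748150 in dm6, and has 3 annotated TSSs. Its IDR peak (2L, 15746874 to 15747352, 479 bp wide) had a signal of 814.7 and rank 449. The summit lay in the first intron of the longer transcripts, 1054 bp downstream of the 5′-most TSS and 486 bp upstream of the next one. Replicate 2 listed this peak at rank 484 with a signal of 296.8 and replicate 3 at rank 438 with a signal of 520.9, with summits 16 and 0 bp from the pooled one. Signal values are on the scale of each list, so only ranks are compared between lists. Both replicates thus placed the CycE peak at nearly the same rank. Weaker pooled summits lay in the same gene at rank 6690 (signal 111.1), 10372, 22970 and 28379. The first of these, 4996 bp downstream of the middle TSS, was listed at rank 8643 in replicate 3 and was not listed within 100 bp in replicate 2. The summit at rank 28379 lay 25 bp downstream of the TSS of the shortest transcripts. Replicate 3 also ranked a summit 3106 bp upstream of CycE among its strongest (rank 5227, signal 90.54), 4160 bp from the nearest pooled summit.

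The sequence at the CycE summit is shown because it is among the most AT-rich of all IDR summits: its GC content within 50 bp was 18.8%, with 3.15% of IDR summits lower, against 62.9% in windows of the same length centred 500 bp to either side. It is given on the forward strand, 5′ to 3′, in Release 6 coordinates, with capitals at the match to the letters TTTGAA of the CHR element, an element of mammalian cell cycle promoters bound by the DREAM complex. The longest run of A and T alone spans 25 bp.
CycE intron, chr2L:15747046-15747146: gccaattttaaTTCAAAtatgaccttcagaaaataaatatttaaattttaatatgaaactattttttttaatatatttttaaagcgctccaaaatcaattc

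E2f1, the activating E2F factor of the fly, had more IDR summits than any other member. E2f1 (FBgn0011766, 3R, 21620304 to 21660871, reverse strand) is 40568 bp long and has 5 TSSs. Its window held 7 IDR summits and 32 pooled summits, and 105 of all protein-coding genes (0.753%) had as many IDR summits or more, while 453 had a window as long or longer. The window density of E2f1, 138 per Mb, was below those of Cdk1 (260), CycB (149) and dap (144). Of the 7 summits of E2f1, 5 lay in its introns, which is 123 per Mb of gene body, a density not computed over all genes. The other 2 had the TSS of another gene nearest, namely InR (147 bp away, rank 5607, signal 132.5), which encodes the insulin receptor, and Archease (359 bp away, rank 3805, signal 190.9).

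The strongest of the intronic peaks of E2f1 (3R, 21656871 to 21657138) had a signal of 366.5 and rank 1683, with its summit in the first intron, 3403 bp downstream of the second TSS. Replicate 2 ranked it 954 and replicate 3 ranked it 2577. A peak in the second intron (3R, 21641594 to 21641812), 3220 bp upstream of the third TSS, had a signal of 303.5 and rank 2177. It stood at rank 1462 in replicate 3 and at rank 5796 in replicate 2, just past the strongest 5743 there, so the replicates placed it far apart. A narrow peak of 144 bp (3R, 21627852 to 21627995), 4792 bp downstream of the last TSS, had a signal of 268.7 and rank 2556, with ranks of 2642 and 2510 in replicates 2 and 3. The only promoter summit of the gene (3R, 21633166 to 21633555) lay 288 bp upstream of the fourth TSS, with a signal of 204.2, rank 3555 and replicate ranks of 4472 and 4065. The weakest of the 5 (3R, 21651062 to 21651451), 9175 bp downstream of the second TSS, had a signal of 181.1, rank 4033 and replicate ranks of 4362 and 3823. All 5 intronic summits were within 84 bp of a summit in each replicate. With noncoding genes counted, the summit of rank 4033 was nearest to lncRNA:CR46057 (4956 bp) and that of rank 2177 to lncRNA:CR46056 (3062 bp). The promoter that lies 5′-most in E2f1 had no IDR summit within 1000 bp, the nearest being 1742 bp away.

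The 5 intronic windows of E2f1 are shown because they hold most of the strong binding at this gene, on the forward strand from 50 bp before to 50 bp after each summit, with capitals at matches to TTTGAA. Their GC content ran from 22.8% to 28.7%, and none matched the forkhead letters GTAAACA or TAAACA, the alternative forkhead letters GACGC, the DRE letters TATCGATA or the E2F letters TTTNNCGC. The window at the internal promoter includes 12 bp of an annotated exon.
E2f1 first intron, chr3R:21656979-21657079: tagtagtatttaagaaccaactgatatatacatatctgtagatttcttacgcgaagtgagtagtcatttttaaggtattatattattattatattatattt
E2f1 first intron, weaker, chr3R:21651207-21651307: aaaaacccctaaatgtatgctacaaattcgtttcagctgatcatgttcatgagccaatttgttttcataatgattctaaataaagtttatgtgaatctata
E2f1 second intron, chr3R:21641664-21641764: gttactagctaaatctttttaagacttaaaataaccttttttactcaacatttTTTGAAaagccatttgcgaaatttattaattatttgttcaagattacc
E2f1 internal promoter, chr3R:21633311-21633411: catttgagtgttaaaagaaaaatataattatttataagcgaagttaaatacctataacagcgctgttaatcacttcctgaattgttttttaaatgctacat
E2f1 downstream of the last TSS, chr3R:21627851-21627951: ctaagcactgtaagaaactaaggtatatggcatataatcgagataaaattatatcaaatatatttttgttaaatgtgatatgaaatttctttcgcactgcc

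Rbf, which encodes the repressor that binds E2f1, had no IDR summit in its window. The TSS of Rbf (FBgn0015799, X, 797090 to 801479, reverse strand) was 21936 bp from the nearest IDR summit. The pooled list held 5 summits, with signals from 31.28 to 46.11 and ranks from 16798 to 29285. The strongest lay 45 bp downstream of the TSS. Replicate 2 listed 0 summits in this window, and replicate 3 listed 7, the one nearest to the TSS at rank 16931.

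The Cdk inhibitor gene dap (FBgn0010316, 2R, 9712321 to 9716256, forward strand) had a pair of neighbouring promoter summits in the IDR set, near its lower end. The first (2R, 9711677 to 9712066) lay 449 bp upstream of the only TSS with a signal of 157.9 and rank 4645, and the other (2R, 9711892 to 9712281) 234 bp upstream with a signal of 131.8 and rank 5635. The lowest signal in the IDR set is 128.7. Replicate 3 ranked the summits 4323 and 4936, whereas replicate 2 had 1 summit between them, at rank 6352 and 68 bp from the first. With replicate 2 alone, taking its strongest 5743 summits, dap had no promoter summit. The peak intervals overlap, and whether they are 1 site or 2 was not tested.

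The mitotic phosphatase gene stg (FBgn0003525, 3R, 29251826 to 29255800, reverse strand) had no IDR summit within its window, the nearest being 9436 bp from its 5′-most TSS. The pooled list held 3 summits. They had a signal of 99.99 (rank 7400) at 3914 bp downstream of the second TSS, 67.95 (rank 10526) at 536 bp upstream of the gene, and 35.71 (rank 24220) inside its intron. The summit upstream of stg was nearer to the TSS of CG45544 (149 bp) and stood at rank 13128 in replicate 2 and 13905 in replicate 3. The strongest lay past the 3′ end and was nearest to SP1029. Thus within 5000 bp, stg, whose transcription times the later embryonic divisions, was covered only by peaks below the IDR threshold. With flanks of 10000 bp its window held 1 IDR summit.

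Cdk1, the mitotic kinase gene, is short and sits between other genes, and each of its 3 IDR summits had a neighbour's TSS nearest. Cdk1 (FBgn0004106, 2L, 10384739 to 10386262, reverse strand) has 1 TSS. Its promoter peak (2L, 10386416 to 10386626, signal 436.9, rank 1315) lay 252 bp upstream of Cdk1 and 148 bp upstream of mRpS7, which encodes a mitochondrial ribosomal protein and is transcribed the other way from a start across a gap of 399 bp. Replicate 2 ranked it 1356 and replicate 3 ranked it 1347, with summits 4 and 0 bp from the pooled one. A stronger peak (2L, 10381948 to 10382224, signal 542.6, rank 938) lay 157 bp upstream of CG5096, past the 3′ end of Cdk1. Its summit also lay inside gny. The third (signal 318.0, rank 2032) lay 90 bp upstream of da, the gene of the bHLH factor daughterless, and was at rank 2674 in replicate 3 but was not listed within 100 bp in replicate 2, whose nearest summit was 1505 bp away.

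The Cdk1 promoter window is shown because the peak stands at the same place and nearly the same rank in both replicates. Capitals mark TTTGAA, and the GC content was 27.7%.
Cdk1 and mRpS7 promoter, chr2L:10386464-10386564: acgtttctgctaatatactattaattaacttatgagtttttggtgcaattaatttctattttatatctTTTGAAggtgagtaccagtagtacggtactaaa

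Among the mitotic cyclins, the strongest peak of all 10 genes stood beside CycB, yet not at its promoter. CycB (FBgn0000405, 2R, 22803521 to 22806948, reverse strand) has 3 TSSs. The peak (2R, 22802756 to 22803151, 396 bp wide) had a signal of 2008 and rank 54 in the IDR set, with rank 85 (signal 662.5) in replicate 2 and rank 42 (signal 1355) in replicate 3. The summits in both replicates were 0 bp from the pooled one. It lay 562 bp past the 3′ end of CycB, in a gap of 1340 bp to the 3′ end of blw, which encodes a subunit of ATP synthase and runs towards CycB. The nearest TSS of any gene was that of CycB itself, 3344 bp away. Gaps between such convergent genes held 225 of the 5743 IDR summits (3.92%), 6 of the strongest 100 (6.0%) and 5.38% of the weaker pooled summits. The other IDR summit in the window (2R, 22798824 to 22799054, signal 419.8, rank 1381) was 181 bp upstream of blw. At the promoter of CycB itself the pooled list held only weak summits, the strongest at rank 18455 (signal 43.09), 143 bp downstream of the 5′-most TSS, and not listed within 100 bp in replicate 2 or replicate 3. Replicate 3 had a summit of its own 45 bp from that TSS at rank 8470 (signal 56.13).

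CycA (FBgn0000404, 3L, 11826719 to 11833578, reverse strand), the gene of cyclin A, had 1 IDR summit in its window (3L, 11822316 to 11822705, signal 172.2, rank 4255). It lay 4208 bp past the 3′ end, 236 bp from the TSSs of CG11597 and CG5946. It stood at rank 2338 in replicate 2 and 6135 in replicate 3. At the CycA promoter the pooled summit was 37 bp upstream of the TSS, with a signal of 62.28 and rank 11517. Replicate 3 listed it at rank 6776 (signal 70.41) and replicate 2 had its nearest summit 7948 bp away. The 101 bp around this weak summit held a match to TATCGATA, the DRE bound by the factor DREF, and one to GACGC, and had a GC content of 46.5%.

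CycB3 (FBgn0015625, 3R, 24867934 to 24870816, reverse strand), which encodes a further mitotic cyclin, had no IDR summit in its window. Its pooled summits had signals of 66.78 (rank 10718, 179 bp downstream of the TSS), 66.7 (rank 10730, past the 3′ end near Elal) and 44.02 (rank 17939, 22 bp upstream of the TSS). Replicate 3 had a summit 13 bp from the TSS at rank 7064, and the nearest in replicate 2 was 5176 bp away. In fzy (FBgn0001086, 2L, 16310956 to 16313097, forward strand) the IDR summit (2L, 16307011 to 16307400, signal 171.8, rank 4267) lay 3750 bp upstream and 92 bp downstream of the TSS of CG5861. Replicate 3 listed it at rank 4076, and in replicate 2 the nearest summit was 4173 bp away. The only other pooled summit (signal 89.82, rank 8161) was 7091 bp downstream of the fzy TSS. Thus fzy was the only member with no pooled summit within 1000 bp of a TSS, and 9 of 10 had one, against 55.9% of protein-coding genes.

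The replicates treated these windows unequally. Of the 17 IDR summits, 11 (64.7%) had a partner within 100 bp among the strongest 5743 summits of replicate 2, and 16 (94.1%) had one in replicate 3, against 83.7% and 89.2% of all IDR summits. Both replicates together covered 10 of 17, and the share of all IDR summits covered by both was not computed. This count was 7 with matching within 50 bp, 10 within 200 bp and 13 with the full replicate lists. The 6 not covered by replicate 2 were the summits at da and InR, the second intron of E2f1, both at dap and the one at CG5861, and the 1 not covered by replicate 3 was that at CG5946. Promoter summits among the strongest 5743 occurred at 3 of 10 members in replicate 2 (CycE, Cdk1 and E2f1, against 21.8% of all genes) and at 4 in replicate 3 (these and dap, against 21.6%). With the strongest summits of replicate 2 alone, the windows held 11 summits in place of 17, and with replicate 3 alone 18.

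**Figure D2:**
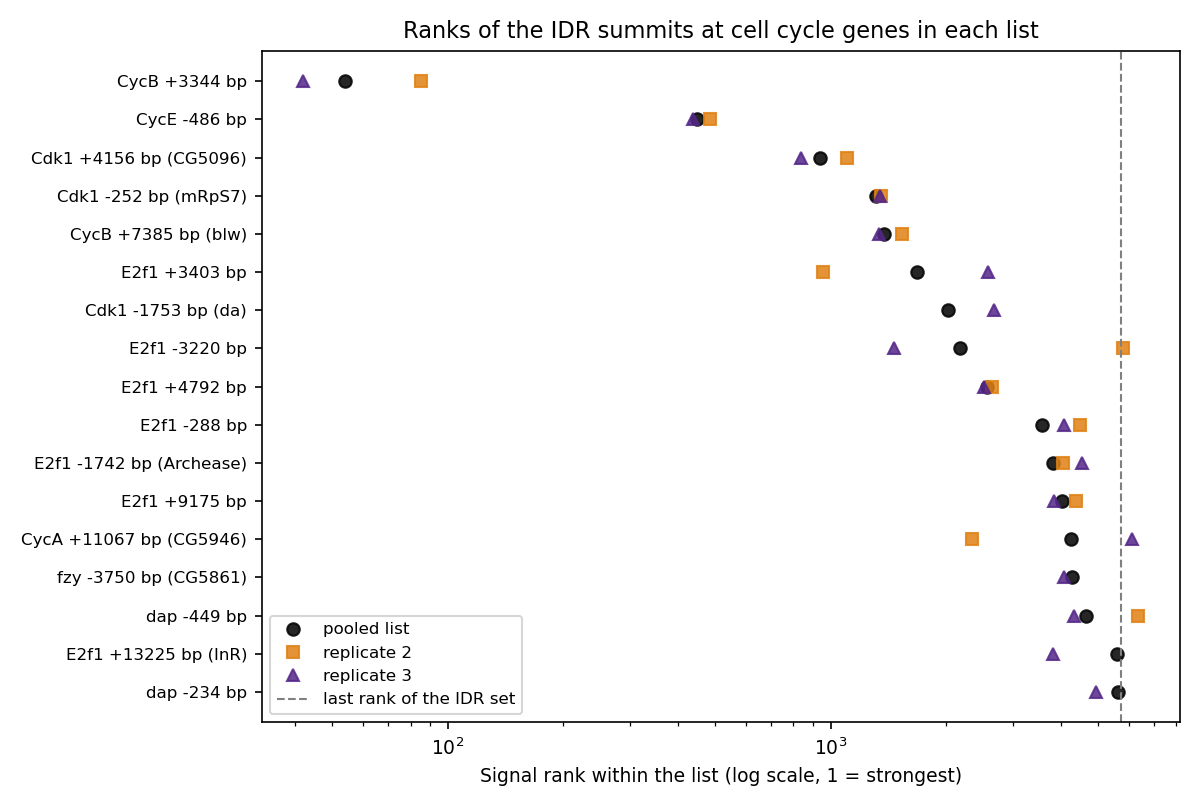
Signal ranks of the 17 IDR summits in the pooled list, replicate 2 and replicate 3, on a log axis with 1 the strongest. Each row is named by the member, the offset from its nearest TSS and, in brackets, the protein-coding gene with the nearest TSS where that is another gene. A symbol is missing where a replicate lists no summit within 100 bp, and the dashed line is the last rank of the IDR set, 5743. The ranks of CycB and CycE are close in all lists, while 4 summits have no symbol for replicate 2.

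The difference was wider among weak summits. Each replicate list holds 30000 peaks, but the windows of the 10 genes held 38 summits of replicate 2 and 100 of replicate 3, or 200 and 526 per Mb, whereas the windows of all protein-coding genes held 236 and 244 per Mb. E2f1 had 16 against 45, stg 3 against 7, CycE 3 against 9, dap 2 against 6, Rbf 0 against 7 and fzy 0 against 7. CycB had 6 against 3 and CycB3 had 3 in each. Of the 54 pooled summits outside the IDR set, 17 (31.5%) were listed within 100 bp in replicate 2 and 40 (74.1%) in replicate 3, against 44.7% and 53.5% of all such pooled summits. Summits close to the start were part of this, in a count chosen after the values were seen. In the full lists, replicate 3 had a summit within 100 bp of a TSS of 6 of 10 members, namely stg, CycA, CycB, CycB3, E2f1 and Rbf, against 20.5% of protein-coding genes. Replicate 2 had one at CycE alone, against 8.74%. The depth of either library is unknown, and its part in this difference was not tested.

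Strong summits at the 10 genes were AT-rich, and weak ones had about the GC content of the genome. Mean GC within 50 bp was 27.9% ± 7.84 (SD over 17 IDR summits), from 18.8% at CycE to 51.5% at InR, and was below the mean of the windows centred 500 bp to either side for 14 of 17. The 54 weaker summits had a mean of 42.3% ± 11.2 and were lower than the flanks in 29 of 54. Neither count against the flanks was made over all IDR summits or all weaker pooled summits. All IDR summits had 30.5% ± 7.71, the weaker pooled summits 41.5% ± 10.9 and the 6 arms 42.2%. The 3 that were not below were all nearest to another gene's TSS, among them those at InR (51.5%) and Archease (31.7%). The 9 summits nearest to a member's own TSS lay between 18.8% and 28.7%, as did the other 5 of the 8 nearest to a neighbour's TSS. None of the 17 summits lay in an annotated mobile element, and the share over all IDR summits was not computed.

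**Figure D3:**
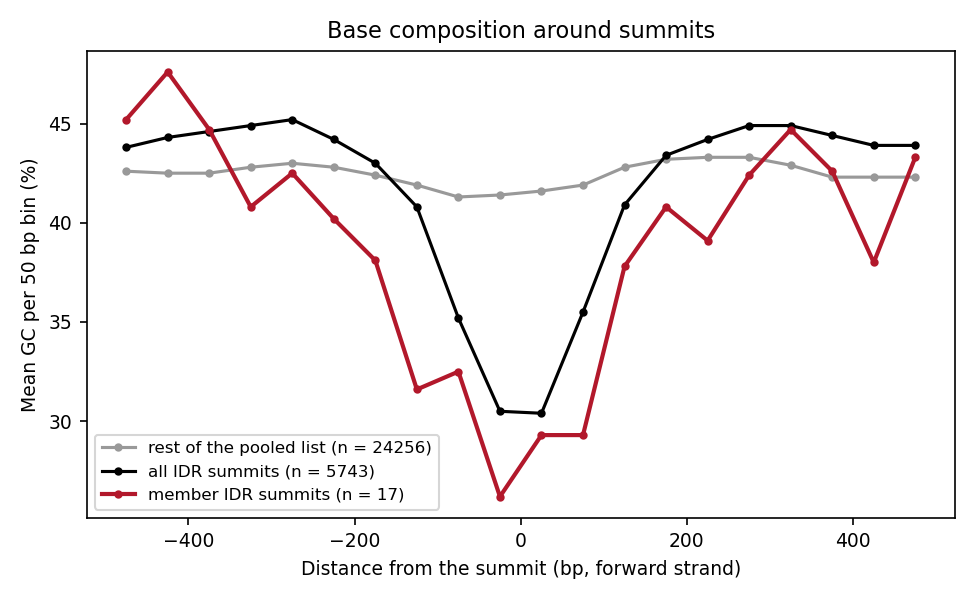
Mean GC in bins of 50 bp against distance from the summit on the forward strand, for the 17 IDR summits at members (red), all 5743 IDR summits (black) and the weaker pooled summits (grey). The red and black lines dip at the summit, to 26.2% and 30.5% in the bin just before it, and the grey line is at 41.4% there.

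A forkhead sequence occurred in 2 of the 17 windows. Searched on both strands within 50 bp of the summit, GTAAACA occurred at 2 of 17, among them the stronger dap summit, against 2.86% of all IDR summits and 1.89% of the 101 bp tiles of the genome. TAAACA, which GTAAACA contains, was found at the same 2, against 15.7% of IDR summits and 9.25% of tiles. GACGC was at 0 of 17 (2.72% of IDR summits, 8.64% of tiles) and TATCGATA at 0 of 17 (0.609% and 0.275%). TTTNNCGC was at 2 of 17 (4.07% and 6.30%), both at neighbours' starts. TTTGAA was at 7 of 17 (19.6% and 11.1%), among them the peaks at CycE, Cdk1, CycB and dap. Over the promoters at all 19607 protein-coding TSSs, taken from 250 bp before to 50 bp after each, these letters occurred in 8.87% (GTAAACA), 31.4% (TAAACA), 24.6% (GACGC), 7.99% (TATCGATA), 21.3% (TTTNNCGC) and 38.7% (TTTGAA). The promoter windows are longer than the 101 bp at summits and tiles, so their shares are not comparable with those above. These counts describe letters in the windows and were not tested.

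Other cell cycle genes were looked up in the same way, from a list of 70 symbols of which 67 matched. Of these, 24 (35.8%) had an IDR summit within 1000 bp of a TSS, against 21.9% of all protein-coding genes, and for 15 of the 24 the gene's own TSS was the nearest. The strongest was at mei-41, the ATR checkpoint kinase gene (X, 16391357 to 16391707, signal 878.4, rank 389), though nearer to the TSS of TH1. RnrS, which encodes the small subunit of ribonucleotide reductase, had a summit 206 bp upstream at rank 461 (signal 797.8). SkpA, an SCF ubiquitin ligase subunit gene, followed at rank 523, with Hmt4-20 nearest, then Cdc16, an anaphase-promoting complex subunit gene, at rank 534 (signal 749.6, 101 bp upstream). Dp, which encodes the partner of E2f1, had a summit 223 bp upstream at rank 624 (signal 696.5). The next were tefu, the ATM kinase gene (rank 1164, with Hsc70-4 nearest), grp, the Chk1 gene (rank 2008, 355 bp upstream), and Mcm2, a replicative helicase gene (rank 2092, 175 bp upstream). All 24 summits lay upstream of the nearest TSS of the listed gene, and the share over all protein-coding genes was not computed.

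By role, 4 of 5 DNA damage checkpoint genes had a promoter summit (mei-41, tefu, grp and lok), but only that of grp had its own TSS nearest. Of 10 matched genes of the anaphase-promoting complex and its regulators, 4 had one, namely Cdc16, fzr, vih and Cdc27, each with its own TSS nearest. Replication genes gave 4 of 14 (RnrS, Mcm2, dpa and dup), also each with its own TSS nearest. The mitotic kinase group gave 3 of 5 (aurB, aurA and Incenp), of which only Incenp was nearest to its own summit. The SCF group gave 3 of 5 (SkpA, ago and slmb), the spindle checkpoint 2 of 6 (Bub3 and BubR1), the E2F, Rb and dREAM group 2 of 7 (Dp and mip130) and the cyclins and kinases 1 of 8 (Cdk4). The Cdk inhibitor gene rux had a summit 150 bp upstream at rank 5441. The regulators of the inhibitory phosphate on Cdk1 (twe, Wee1 and Myt1) gave 0 of 3, and the cohesin release genes pim, thr and Sse 0 of 3. With genes from these small groups, shares are counts only and no group was tested.

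**Figure D4:**
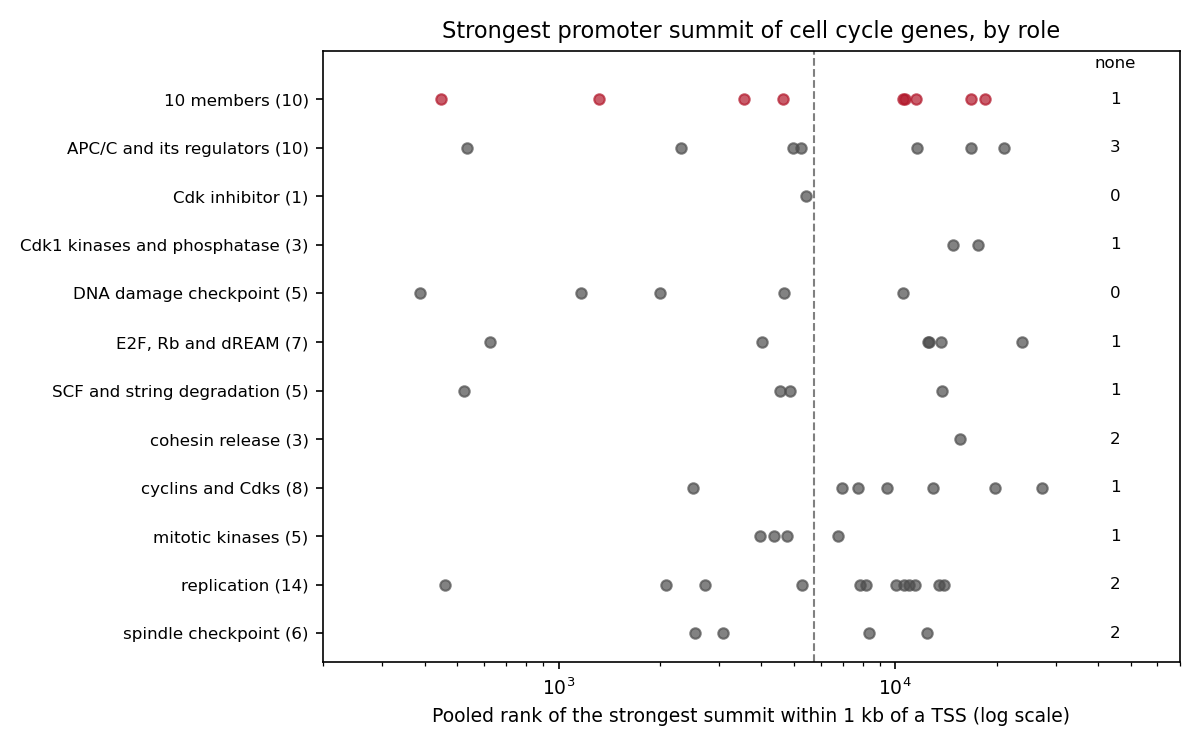
Rank in the pooled list of the strongest summit within 1000 bp of a TSS, on a log axis, for the 10 members (red) and 67 other cell cycle genes by role (grey), with the number of genes in brackets. The dashed line marks the last IDR rank, 5743, and the numbers at the right are genes with no pooled summit in that window. Of the members, 4 stand left of the line, 5 right of it and 1 has none.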

How the data were processed

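Peak lists of both replicates, of the pooled replicates and of the optimal IDR set were used as the authors deposited them, in dm6 coordinates per the labels. Each peak has a signal value, a −log10 q-value and a summit, deposited by the authors; the −log10 q-value was not used. Which peak caller, control treatment and IDR cut-off the authors used is not given in the sources used here. Read totals were not used here, so depth is unknown.

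Summits were taken from the deposited offsets, and at most 4 per list that fell outside their interval were moved to its edge. Genes and 19607 protein-coding TSSs came from Ensembl release 115, sequence and mobile elements from RefSeq, Release 6. Coordinates are 1-based. Replicate summits matched within 100 bp. The members and the gene and motif lists were chosen with earlier results of these data known. All 10 members are named, with the 8 strongest other cell cycle genes, small counts and nearest neighbours; the remaining genes of small groups were named after their values were seen. Each quantity is a description without a test. The sequence of 1 peak is not reported here. Window counting was checked on planted summits. The software was pandas 2.3.3 and numpy 2.4.6 under Python 3.11.15, with scipy 1.17.1 for intervals and matplotlib 3.10.9 for plots.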

Additional observations from a re-analysis of the deposited data

How the results depend on the processing

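The count of 4 members with a promoter summit was the same with windows of 500 bp (18.5% of all protein-coding genes) and 2000 bp (27.7%), and the same genes were counted. It was 2 (Cdk1 and dap) with only the start of the longest transcript, 2 (CycE and Cdk1) with the 2871 IDR peaks above the median signal (12.9% of all genes), 1 (CycE) with the strongest 1000 (5.4%), and 3 or 4 with a replicate left out. With only the start of the longest transcript, the share of all genes was not computed. Members with a summit in the wider window numbered 7, then 4 above the median signal, 3 with the strongest 1000, 4 when only summits nearest to a member's TSS counted, and 5 to 6 with a replicate left out. Flanks of 2000 bp gave 5 members, 13 summits and 99.8 per Mb. Flanks of 10000 bp gave 9 members, 24 summits and 82.7 per Mb, with 1 summit each at stg and CycB3. The 17 summits became 9 above the median signal, 3 with the strongest 1000, 9 when nearest to a member's TSS, and, with a replicate left out, 11 (without replicate 3) to 18 (without replicate 2). Their density of 89.3 per Mb became 47.3 above the median signal, 15.8 with the strongest 1000, 47.3 when nearest to a member's TSS, and from 57.8 without replicate 3 to 94.6 without replicate 2. Fewer peaks enter by construction above the median signal, with the strongest 1000 and with nearest summits only. Those densities cannot be set against the 47.0 per Mb of all protein-coding windows, which counts all 5743 IDR summits. For the wider window, neither that density nor the share of all genes was recomputed under the other settings. A left-out replicate keeps 5743 summits, and the cause of its change was not tested. The other cell cycle genes with a promoter summit ranged from 21 to 25 with a replicate left out. Sequencing depth is unknown, so whether missing peaks reflect depth cannot be told from these lists.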

Other observations

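By rank, the peaks most like that of CycE in the IDR set were those at rank 448 (X, 11920960 to 11921307, signal 815.3), nearest to Sclp with its summit 1618 bp downstream of the TSS, and at rank 450 (X, 5755294 to 5755641, signal 807.9), 90 bp upstream of CG15771. The likeness is a difference of 1 rank in signal and covers nothing else.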
